A study of Mus musculus with 9 samples.

Results

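Spink1, Lyz1, Reg3g and Chga are 4 genes that thymic epithelial cells share with secretory cells of the gut and pancreas and with neuroendocrine cells, and they are described here in sorted mouse thymic tuft cells after irradiation. They were chosen by symbol, with earlier results of these data known, and are 4 of the 13223 genes in the deposited table. All 4 passed the low-count filter that left 8934 genes for testing. The irradiated group held 4 libraries from young wild-type (WT) female mice given a sublethal dose of 425 rad 3 days before the thymus was taken. The untreated group held 5 libraries from WT females of matched age that received no irradiation. Per the labels, thymus tissue was digested by Liberase TH together with DNase before the sort, and polyadenylated RNA was sequenced by MARS-seq, a method that reads transcripts at their 3′ end. No source used here gives the sort gate, the number of cells or whether each library came from a mouse of its own, so the p-values reflect the variation among libraries, which may be technical.

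Medullary thymic epithelium holds mimetic cells, small populations that switch on the programs of peripheral tissues and show those tissues' antigens to developing T cells. Tuft cells are among these populations, and others resemble Paneth and goblet cells, microfold cells of the gut, neuroendocrine cells, muscle or skin. Spink1 encodes a secreted inhibitor of trypsin, best known from acinar cells of the pancreas. Lyz1 encodes the lysozyme of mouse Paneth cells, an enzyme that cuts bacterial cell walls, and its neighbour Lyz2 encodes the lysozyme of macrophages. Reg3g encodes a C-type lectin that gut epithelium secretes against Gram-positive bacteria and that interleukin 22 induces through the transcription factor STAT3. Chga encodes chromogranin A, an acidic protein packed into the dense-core granules of neuroendocrine cells.

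In the mm10 annotation all 4 genes are protein-coding, and none shares exon bases with another gene. Reg3g lies on chromosome 6 (78466269 to 78468872, minus strand). Lyz1 (117287797 to 117292868) and Lyz2 (117277331 to 117282321) lie beside each other on the same strand, the minus strand of chromosome 10, and Chga is found on chromosome 12 (102554969 to 102565028, plus strand). The libraries read 3′ ends, so the last 500 bases of each longest coding transcript were compared with all other transcripts. Of 451 stretches of 50 bases in Lyz1, 80 (17.7%) also occurred in Lyz2, which leaves part of its reads open to assignment to either lysozyme. Spink1, Reg3g and Chga shared 0 of 451 with any other gene.

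The start regions of the lysozyme pair are shown because these close copies are compared below, with capitals marking the bases that differ between them. The sequences are from RefSeq (GRCm38.p6), read 5′ to 3′ on the gene's strand, and cover chr10:117292919-117292998 for Lyz1 and chr10:117282323-117282402 for Lyz2.
Lyz1: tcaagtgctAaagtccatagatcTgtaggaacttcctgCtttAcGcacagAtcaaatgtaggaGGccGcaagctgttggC
Lyz2: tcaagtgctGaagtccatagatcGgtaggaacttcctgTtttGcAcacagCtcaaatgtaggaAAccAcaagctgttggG
The 50 bases between these stretches and the RefSeq start were identical in both genes, so 120 of the 130 bases before the start (92.3%) were the same.

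The same window of 130 bases is shown for Reg3g (chr6:78468875-78469004, minus strand) and Chga (chr12:102554811-102554940, plus strand), because both carry a short motif near the start, which is in capitals.
Reg3g: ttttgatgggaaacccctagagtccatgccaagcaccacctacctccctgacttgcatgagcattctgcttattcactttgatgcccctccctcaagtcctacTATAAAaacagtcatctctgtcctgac
Chga: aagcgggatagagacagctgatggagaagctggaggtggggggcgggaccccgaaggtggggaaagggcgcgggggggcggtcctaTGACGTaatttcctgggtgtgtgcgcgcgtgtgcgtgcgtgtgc
Counted back from the start, TATAAA, the TATA box, began at -27 in Reg3g, and 6.83% of 32851 RefSeq promoters of this length hold it on either strand. TGACGT, the core of a cAMP response element, began at -44 in Chga and is held by 4.75%. The STAT motif TTCNNNGAA, held by 3.53%, was not in the windows of Lyz1, Lyz2, Reg3g or Chga. The E-box CANNTG, held by 42.7%, was found at -129 and -78 in Lyz1 and Lyz2 and at -116 in Chga. A match describes the letters and does not show that a factor binds there.

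Library totals ran from 509157 to 939948 counts in irradiated and from 686082 to 978442 in untreated libraries. Levels are in CPM, which puts libraries of different totals on a common scale (TMM factors), and each change is the log2 ratio of irradiated to untreated libraries with its SE. Across all tested genes 109 rose and 11 fell by edgeR's quasi-likelihood test at a Benjamini-Hochberg adjusted p of 0.05, and the median change was -0.02. Irradiated replicate 4 stood apart on the first principal component, at 75.08, where the remaining 8 libraries spanned -31.77 to 6.12. The 15 tuft cell markers summed to between 13138 and 17688 CPM in irradiated and between 7803 and 17357 CPM in untreated libraries, lowest in untreated replicate 2. All 15 were tested and 0 were called by edgeR, by DESeq2 or by limma-voom, with 2 at an unadjusted p under 0.05. Across all 8934 tested genes 946 had an unadjusted p under 0.05, the background for such counts in the lists below.

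Spink1 and Lyz1 were lower in the irradiated libraries of sorted tuft cells by edgeR, while Reg3g and Chga did not pass its test. The calls were 2 of 4 lower and 0 of 4 higher, where 0.123% of all tested genes were called lower and 1.22% higher. Because the 4 were chosen with earlier results of these data known, the shares are given as description only. DESeq2 also called 2 of the 4 lower, Spink1 and Lyz1, and 0 higher, against 0.775% and 1.43% of the 12896 genes it tested. Its calls in the lists below can therefore include genes under edgeR's low-count filter. Limma-voom called 0 of 4 in either direction, against 0.269% called lower and 1.65% higher. In 2 of the 4, Spink1 and Lyz1, all irradiated libraries lay below all untreated ones, which held for 2.08% of tested genes. In 0 of the 4 they lay above all untreated ones, which held for 3.06%. In bulk libraries fewer cells making a transcript and less of it per cell cannot be told apart.

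**Figure D1:**
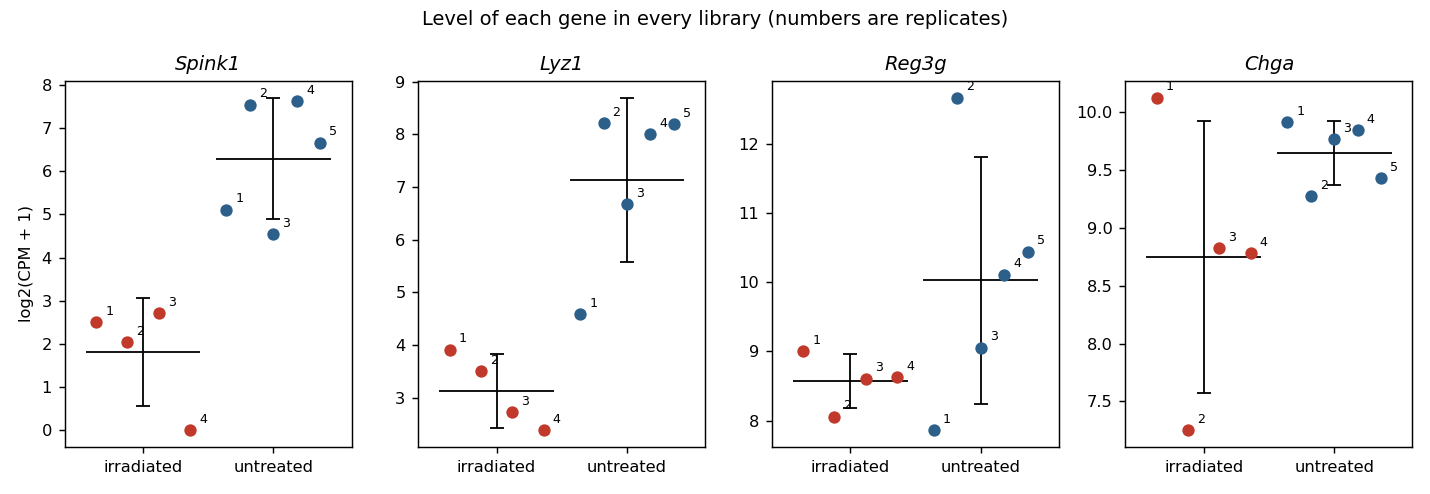
Level of each gene in every library, as log2(CPM + 1), with 4 irradiated libraries (red) left of 5 untreated ones (blue), small numbers for replicates, and horizontal lines and bars for the mean and SD on that scale. The groups are separate for Spink1 and Lyz1, untreated replicate 2 stands at 6491 CPM for Reg3g, and irradiated replicate 1 stands at 1116 CPM for Chga, above all untreated libraries.

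Spink1, the trypsin inhibitor, was nearly absent from the irradiated libraries. Its gene is on chromosome 18 (43728082 to 43737557, minus strand). Irradiated replicates 1 to 4 held 3, 3, 5 and 0 counts, or 4.68, 3.11, 5.60 and 0 CPM, against 32, 125, 18, 149 and 72 counts, or 33.5, 185, 22.2, 196 and 100 CPM, in untreated replicates 1 to 5. The groups did not overlap, and the lowest untreated library stood 3.96-fold above the highest irradiated one. In irradiated replicate 4, the shallowest library, 0 of 509157 counts allows up to 6.31 CPM (3 counts, counting error only), which is above the values of the other irradiated libraries.

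The group means of Spink1 were 3.35 ± 2.46 CPM in irradiated libraries (SD, n = 4) and 107 ± 81.6 CPM in untreated libraries (SD, n = 5). The log2 fold change was -4.81 ± 0.91 (95% interval -6.85 to -2.76, edgeR adjusted p = 0.0403), or 28.0-fold lower, on 11 counts in the irradiated and 396 in the untreated libraries. A two-sided exact permutation test over libraries gave p = 0.00794, the smallest it can give. The biological coefficient of variation, the spread between libraries beyond counting error, was 67.6%, above that of 98.4% of tested genes. Untreated libraries differed 8.83-fold among themselves, with replicates 2 and 4 high and replicates 1 and 3 low. In the authors' deposited table Spink1 passed, with a log2 ratio of untreated to irradiated of 4.90 and an adjusted p of 3.59e-08.

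Lyz1, the Paneth cell lysozyme, was low in the same 4 libraries. Irradiated replicates 1 to 4 held 9, 10, 5 and 2 counts, or 14.0, 10.4, 5.60 and 4.21 CPM, against 22, 200, 82, 194 and 209 counts, or 23.0, 296, 101, 255 and 291 CPM, in untreated replicates 1 to 5. The groups did not overlap, but untreated replicate 1 stood only 1.64-fold above the highest irradiated library, while the other untreated libraries were at 101 CPM or more.

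Lyz1 averaged 8.55 ± 4.51 CPM in irradiated libraries (SD, n = 4) and 193 ± 124 CPM in untreated libraries (SD, n = 5). Its log2 fold change was -4.44 ± 0.83 (95% interval -6.32 to -2.56, edgeR adjusted p = 0.0420), or 21.7-fold lower, on 26 counts in the irradiated and 707 in the untreated libraries. The two-sided exact permutation test gave p = 0.0159. In the authors' deposited table Lyz1 passed, with a log2 ratio of untreated to irradiated of 4.47 and an adjusted p of 2.04e-09.

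Whether Spink1 and Lyz1 were called depended on which libraries were in the fit, although neither fall changed sign. When each of the 9 libraries was left out in turn, the log2 fold change of Spink1 ranged from -5.13 to -4.47 and the gene was called in 4. Its call was lost without irradiated replicate 1, 2, 3 or 4 (edgeR adjusted p = 0.144, 0.133, 0.118 and 0.173) and without untreated replicate 5 (0.0846). For Lyz1 the log2 fold change ranged from -4.73 to -4.24 and the gene was called in 2 of the 9 fits, those without untreated replicate 1 (edgeR adjusted p = 0.000402) or untreated replicate 2 (0.0487). The call of Lyz1 was lost without irradiated replicate 1, 2, 3 or 4 (edgeR adjusted p = 0.118, 0.129, 0.143 and 0.184) and without untreated replicate 3, 4 or 5 (0.0516, 0.0666 and 0.0808). In the fits without irradiated replicate 1, 2, 3 or 4, genes called lower over all tested genes went from 11 to 2, 2, 6 and 8. Limma-voom called neither gene, with log2 fold changes of -4.25 for Spink1 (adjusted p = 0.372) and -4.03 for Lyz1 (0.246).

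**Figure D2:**
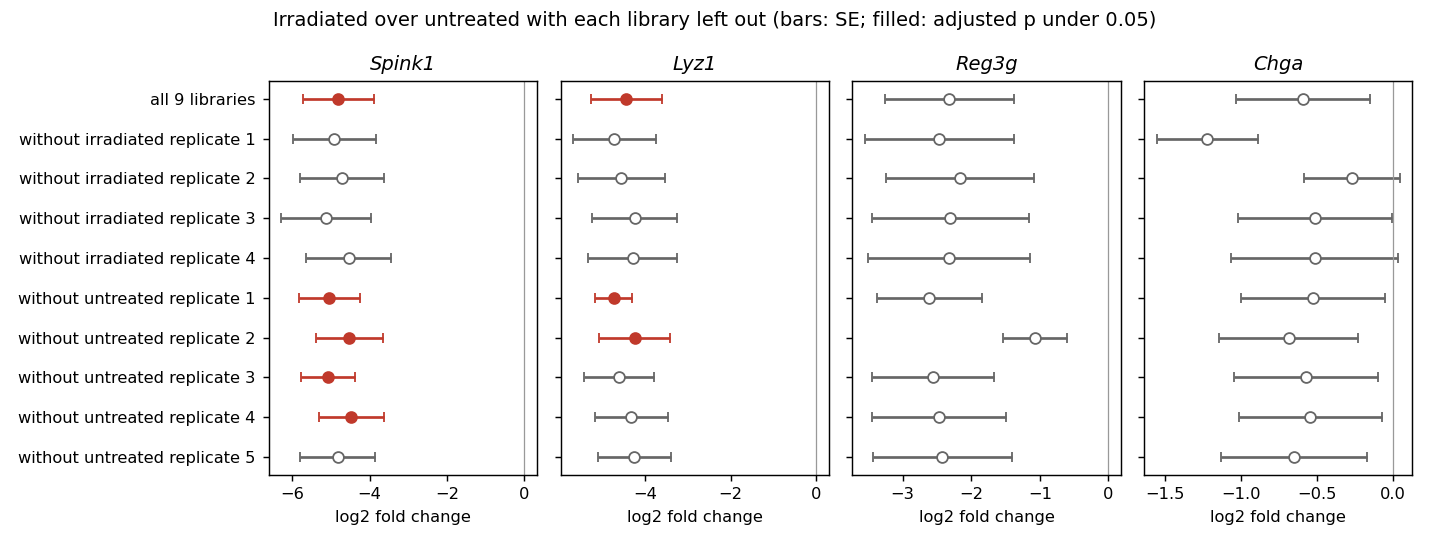
Log2 fold change of irradiated over untreated for each gene, with all 9 libraries (top) and with each library left out in turn, where bars are the SE and filled red points have an edgeR adjusted p under 0.05. All points lie below 0, and Reg3g comes to -1.07 without untreated replicate 2 while Chga comes to -1.22 without irradiated replicate 1.

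Lyz2, the macrophage lysozyme next to Lyz1, had another pattern over the libraries. Irradiated replicates 1 to 4 held 81.1, 53.9, 391.9 and 114 CPM, against 773, 397, 432, 178 and 59.9 CPM in untreated replicates 1 to 5, and the groups overlapped. The log2 fold change of Lyz2 was -1.19 ± 0.82 (edgeR adjusted p = 0.699). The library with the most Lyz2, untreated replicate 1, held the least Lyz1 of its group, and the untreated library with the least Lyz2, replicate 5, held 4.86 Lyz1 counts for each count of Lyz2.

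Within a library, log2 CPM of Lyz1 minus log2 CPM of Lyz2 was -3.53 ± 1.63 in irradiated libraries (SD, n = 4) and -0.93 ± 2.72 in untreated libraries (SD, n = 5). The difference between the groups, -2.60, did not pass the two-sided exact permutation test (p = 0.127). Without untreated replicate 1 it was -3.60 with an exact permutation p of 0.0286, so that library decides the call.

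**Figure D3:**
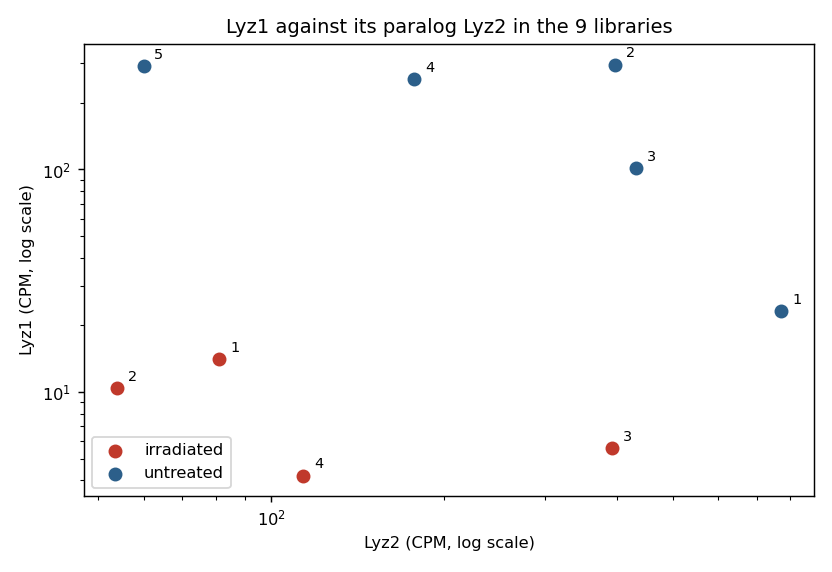
Level of Lyz1 against that of Lyz2 in the 4 irradiated (red) and 5 untreated (blue) libraries, in CPM with both axes on a log scale and small numbers for replicates. Irradiated libraries lie along the bottom, at 4.21 to 14.0 CPM of Lyz1, while Lyz2 spans 53.9 to 391.9 CPM in irradiated and 59.9 to 773 CPM in untreated libraries.

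Because Lyz2 marks macrophages, the 20 macrophage and dendritic cell markers were read beside the lysozymes. The 17 in the table, Lyz2 among them, summed to between 1663 and 2346 CPM in irradiated and between 1397 and 6081 CPM in untreated libraries, highest in untreated replicate 1. Of these sums Cst3 alone held 947 to 1172 CPM in irradiated and 1032 to 3096 CPM in untreated libraries. Lgals3 held 379 to 546 CPM and 47.4 to 213 CPM. Of 12 tested, edgeR called 1 higher (Lgals3) and 2 lower, the dendritic cell genes Ccl22 and Ccr7, each at 0 in 2 irradiated libraries. Of the 12, 11 lay below 0 (52.5% of all tested genes did) and 1 above, with a median of -1.13. DESeq2, which tested 16, called Ccl22, Ccr7 and Mpeg1 lower and Lgals3 higher. Limma-voom called Ccr7 lower and Lgals3 higher. Siglech, of plasmacytoid dendritic cells, was at 0 in all 4 irradiated and in 2 untreated libraries. The part of these cells in the fall of Lyz1 was not tested.

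Reg3g, the antibacterial lectin, averaged 391 ± 101 CPM in irradiated libraries (SD, n = 4) and 1949 ± 2580 CPM in untreated libraries (SD, n = 5), and it did not pass the test. Irradiated replicates 1 to 4 held 329, 256, 347 and 188 counts, or 513, 265, 389 and 396 CPM, against 221, 4381, 430, 839 and 996 counts, or 231, 6491, 530, 1103 and 1388 CPM, in untreated replicates 1 to 5. Untreated replicate 1 lay below all irradiated libraries and the other 4 untreated libraries above them, so the groups overlapped through that library. Irradiated libraries spanned 1.93-fold, and untreated ones 28.1-fold.

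The log2 fold change of Reg3g was -2.32 ± 0.94 (95% interval -4.47 to -0.16, edgeR adjusted p = 0.414, unadjusted p = 0.0380), and the two-sided exact permutation test gave p = 0.151. Untreated replicate 2 alone held 4381 of the 6867 untreated counts, and Reg3g made up 0.629% of that library (95% Wilson interval 0.611% to 0.648%, counting error only). Without it the untreated mean was 813 ± 527 CPM (SD, n = 4) and the log2 fold change -1.07 (edgeR adjusted p = 0.496). The biological coefficient of variation of Reg3g, 84.0%, was above that of 99.3% of tested genes. In the authors' deposited table Reg3g did not pass, with a log2 ratio of untreated to irradiated of 2.30 and an adjusted p of 0.181.

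Untreated replicate 2 stood apart in several marker lists too. It held the highest sum of the Aire-stage medullary epithelium list (15190 CPM, against 3525 to 6104 in the other untreated libraries and 2483 to 3272 in irradiated ones). Most of that sum was the class II genes H2-Aa (5114 CPM) and H2-Ab1 (7117 CPM). The same library was highest for keratinocyte markers (4214 CPM, against 593 to 1370 in irradiated libraries) and for cortical epithelium (2009 CPM, against 384 to 648). The part of these cells in the level of Reg3g was not tested.

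Chga, the granule protein, averaged 540 ± 408 CPM in irradiated libraries (SD, n = 4) and 812 ± 151 CPM in untreated libraries (SD, n = 5) and did not pass the test. Irradiated replicates 1 to 4 held 715, 146, 404 and 209 counts, or 1116, 151, 452 and 440 CPM, against 922, 417, 705, 699 and 494 counts, or 965, 618, 869, 919 and 689 CPM, in untreated replicates 1 to 5. In 3 of 4 irradiated libraries Chga lay below all untreated ones, and irradiated replicate 1 lay above them all. The spread was on the irradiated side, 7.37-fold, against 1.56-fold among untreated libraries.

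The log2 fold change of Chga was -0.59 ± 0.44 (95% interval -1.56 to 0.38, edgeR adjusted p = 0.720), and the two-sided exact permutation test gave p = 0.119. Without irradiated replicate 1 the irradiated mean was 348 ± 170 CPM (SD, n = 3) and the log2 fold change -1.22 (edgeR adjusted p = 0.192), and without irradiated replicate 2 it was -0.27 (0.824). Without irradiated replicate 4, the library that stood apart, it was -0.51, and that of Reg3g was -2.32. Irradiated replicate 1 also held the highest sum of the 5 neutrophil markers in the table, 2536 CPM. Replicates 2 to 4 had 302 to 537 CPM and untreated libraries 112 to 754 CPM. Among irradiated libraries Ltf, which is also on the epithelial antimicrobial list, reached 1578 CPM, S100a9 598 CPM and S100a8 360 CPM. Ly6g and Camp held 1 count each in the irradiated libraries and 30 and 28 in the untreated ones. The part of these markers in the level of Chga was not tested. In the authors' deposited table Chga did not pass, with a log2 ratio of untreated to irradiated of 0.57 and an adjusted p of 0.722.

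Whether the genes changed by different amounts was tested for all 6 pairs, from the difference of 2 genes' log2 CPM within each library. For Spink1 minus Lyz1 the irradiated mean less the untreated mean was -0.11 (two-sided exact permutation test, adjusted p = 0.833). That contrast was -2.44 for Spink1 minus Reg3g, -2.99 for Spink1 minus Chga, -2.32 for Lyz1 minus Reg3g and -2.88 for Lyz1 minus Chga. These 4 pairs had raw exact permutation p of 0.0159 to 0.0397 and all had an adjusted p of 0.0595, so none passed. With a prior count of 0.5 in place of 2, which spreads low levels further, all 4 passed, with differences of -3.25, -3.79, -2.61 and -3.16 (exact permutation, adjusted p = 0.0317 to 0.0476). For Reg3g minus Chga the contrast was -0.55 (exact permutation, adjusted p = 0.810).

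Over the 5 untreated libraries alone, Spink1, Lyz1 and Reg3g varied together and Chga the other way. Pearson's r of log2 CPM was 0.77 between Spink1 and Lyz1, 0.78 between Spink1 and Reg3g and 0.84 between Lyz1 and Reg3g. Against Chga it was -0.51 for Spink1, -0.69 for Lyz1 and -0.88 for Reg3g. Over all 9 libraries r was 0.94 between Spink1 and Lyz1 and between 0.24 and 0.46 for the 3 pairs with Chga. These values describe 5 or 9 libraries that share their scaling and, for all 9, the group difference.

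The tested genes with the pattern most like that of Spink1 over the 9 libraries were the RNA sensor Dhx58 and the hormone Fgf21 (r = 0.96 each), the kinesin Kif13b (0.95) and the glutamate transporter Slc1a3 (0.94). For Lyz1 they were Mien1 (0.95), the milk protein Csn2 and the interferon-induced Ifi35 (0.93 each) and Morc3 (0.92). Of these 8, only Fgf21 was called by edgeR (-2.87 on the log2 scale, adjusted p = 0.0314). For Reg3g they were the calcium-binding S100a14 (0.95), the diamine oxidase Aoc1 (0.94), the basal keratin Krt5 and the peroxidase Lpo (0.93 each), and for Chga Aamdc (0.94), the ubiquitin ligase Trim32 (0.90), Asb8 (0.89) and the sphingosine phosphate receptor S1pr2 (0.86). In the 5 untreated libraries alone r with Reg3g stayed at 0.95 to 0.98 for its 4 genes, while r of Asb8 and S1pr2 with Chga was 0.25 and 0.36.

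Of the secretory gut program Lyz1 was the only gene called by edgeR. Of 37 Paneth, goblet and enterocyte genes 31 were in the table and 19 were tested, of which 1 fell, Lyz1, and 0 rose. Of the 19, 14 had a fold change below 0, or 12 of the 17 without Lyz1 and Reg3g (52.5% of all tested genes did). The median was -1.63, or -1.27 over those 17, against -0.02 over all tested genes. The mucus protein Fcgbp averaged 96.7 ± 25.4 CPM in irradiated and 447 ± 410 CPM in untreated libraries (log2 fold change -2.19, edgeR adjusted p = 0.186). The acute-phase protein Saa1 (-2.70, edgeR adjusted p = 0.205) and the metalloprotease Mmp7 of mouse Paneth cells (-3.14, 0.214) did not pass either. In this list 9 genes, the chosen Lyz1 and Reg3g among them, had an unadjusted p under 0.05, all lower. Of all 8934 tested genes 946 did in either direction. DESeq2 tested 26 genes of the list and called 5 lower (Fcgbp, Lyz1, Mmp7, Saa1 and Tff3), and limma-voom called 0. Leaving out 1 library at a time moved the median between -1.93 and -0.97, and Fcgbp was called lower without untreated replicate 1 or 2.

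Pancreas acinar genes, the list that holds Spink1, were sparse. Of 32 genes 13 were in the table and 4 were tested, of which 1 fell by edgeR, Spink1, and 0 rose. DESeq2 called 2 lower, Spink1 and Gp2, and limma-voom called 0. Gp2, a receptor for bacteria on microfold cells and a zymogen granule protein, averaged 234 ± 86.8 CPM in irradiated and 578 ± 243 CPM in untreated libraries (log2 fold change -1.30, edgeR adjusted p = 0.0839) and was called by edgeR without untreated replicate 1. The ribonuclease Rnase1 (-2.01, edgeR adjusted p = 0.518) and the transcription factor Rbpjl (-0.16, 0.949) did not pass. Among 12 tested protease inhibitors and other Spink genes, 1 fell by edgeR, again Spink1, and 0 rose, with a median of -0.33, which was 0.10 without untreated replicate 2. The leukocyte elastase inhibitor Serpinb1a (-1.60, edgeR adjusted p = 0.321), the cytosolic inhibitor Serpinb6a (-0.65, 0.221) and the cystatin Cst3 (-0.65, 0.453) did not pass by edgeR. DESeq2 called 2 of this list lower, Spink1 and Serpinb1a, and limma-voom called 0. Of 3 tested lysozyme genes, edgeR and DESeq2 called only Lyz1, and limma-voom called 0.

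Epithelial antimicrobial genes share the role of Reg3g, and a list of them was read without it. Of 15 tested genes 1 rose and 0 fell by edgeR, and the median was 0.55. DESeq2, which tested 22 genes of the list, called the same gene higher and 2 lower (Pglyrp1 and Pglyrp2), and limma-voom called that gene higher and 0 lower. The riser was the secreted ribonuclease Rnase4, at 244 ± 47.2 CPM in irradiated and 102 ± 21.7 CPM in untreated libraries (log2 fold change 1.26 ± 0.20, edgeR adjusted p = 0.00525), called whichever of the 9 libraries was left out. The peptidoglycan-binding Pglyrp1 (-1.56, edgeR adjusted p = 0.159), the lectin Itln1 (-1.63, 0.268) and the siderophore binder Lcn2 (1.57, 0.433) did not pass by edgeR. Leaving out untreated replicate 4 made Pglyrp1 a lower call, and leaving out untreated replicate 2 made Lcn2 and the immunoglobulin transporter Pigr higher calls. The list's median was -0.64 without irradiated replicate 1 and 1.196 without untreated replicate 2, so its sign rests on single libraries.

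Of 20 tested genes of interleukin 22 and STAT3 signalling, 0 were called by edgeR and 0 by limma-voom, 3 had an unadjusted p under 0.05, all higher, and DESeq2 called 1 higher, the transcription factor Cebpb. Cebpb averaged 218 ± 166 CPM in irradiated and 74.0 ± 21.7 CPM in untreated libraries (log2 fold change 1.54, edgeR adjusted p = 0.150). Bcl3 (0.68, edgeR adjusted p = 0.201), the feedback inhibitor Socs3 (1.25, 0.322) and Stat3 itself (0.43, 0.494) did not pass.

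Around Chga, 0 of 17 tested neuroendocrine genes were called by edgeR and 0 by limma-voom, with 3 at an unadjusted p under 0.05, all lower. The median was -0.12, or -0.02 over the 16 without Chga. DESeq2 tested 31 genes of the list and called 1 lower, Nts, which is under edgeR's filter. The granins Chgb (0.47, edgeR adjusted p = 0.778) and Scg2 (-0.82, 0.427) did not pass. Leaving out 1 library at a time moved the median between -0.22 and 0.05. The vesicle calcium sensor Syt7 (-0.92, edgeR adjusted p = 0.374), the neuropeptide Calcb (-2.18, 0.415) and the syntaxin Stx1a (0.96, 0.499) did not pass. Summed over the 35 genes in the table, the list reached 1026 to 1682 CPM in irradiated and 1391 to 2461 CPM in untreated libraries, sums that include Chga.

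The machinery of secretion showed no called change. Of 19 tested granule exocytosis genes 0 were called by edgeR, DESeq2 or limma-voom, with 1 at an unadjusted p under 0.05 (Unc13d, -0.80, edgeR adjusted p = 0.423) and a median of -0.01. Cadps (-1.59, edgeR adjusted p = 0.524), a priming factor of dense-core vesicles, the effector Rph3al (0.46, 0.608) and the SNARE protein Vamp8 (-0.20, 0.813) did not pass. Of 23 tested genes of protein folding and export 0 were called by the same tools, with 1 at an unadjusted p under 0.05 (Herpud1, 0.49, edgeR adjusted p = 0.329) and a median of 0.06. The chaperone Hspa5 (0.50, edgeR adjusted p = 0.485), which was called higher without irradiated replicate 4, the goblet cell isomerase Agr2 (-2.18, 0.517) and Pdia6 (0.35, 0.570) did not pass.

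**Figure D4:**
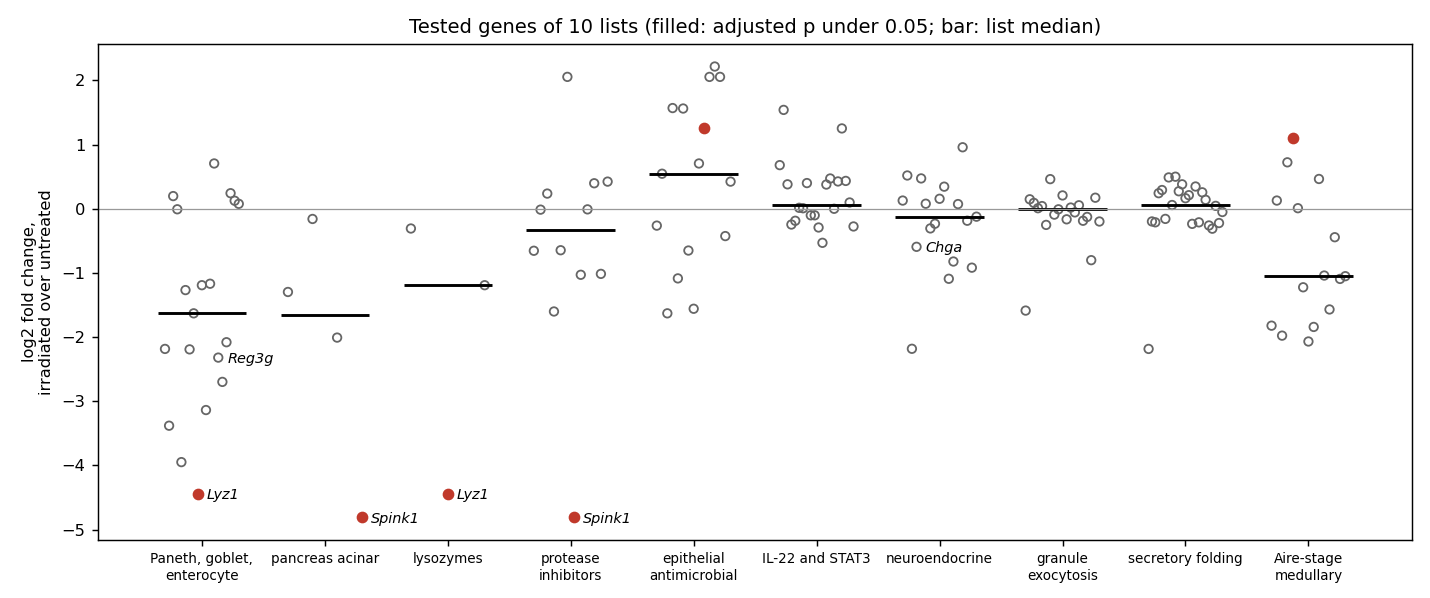
Log2 fold change of irradiated over untreated for each tested gene of 10 gene lists, where filled red points have an edgeR adjusted p under 0.05, bars are list medians and a gene may be in several lists. Spink1 and Lyz1 lie lowest in their lists, and the median is -1.63 for Paneth, goblet and enterocyte genes and -0.01 for granule exocytosis.

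Transcription factors of mimetic cells gave 0 calls among 16 tested by edgeR, with 3 at an unadjusted p under 0.05, all higher, and a median of 0.07. DESeq2, which tested 22 genes of the list, called Klf4 higher and Gata3 lower, and limma-voom called Klf4 higher. Klf4, a factor of differentiating epithelium, averaged 2216 ± 661 CPM in irradiated and 1246 ± 229 CPM in untreated libraries (log2 fold change 0.83, edgeR adjusted p = 0.142), and was called by edgeR without irradiated replicate 4. Elf3 (0.89, edgeR adjusted p = 0.180), the muscle factor Myog (0.60, 0.437) and Grhl1 (-0.85, 0.628) did not pass.

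Of 15 tested genes of Aire-stage medullary epithelium, the cells from which mimetic cells are thought to arise, 1 rose and 0 fell by edgeR, and the median was -1.05. The riser was the tight junction protein Cldn4, at 342 ± 52.6 CPM in irradiated and 159 ± 55.3 CPM in untreated libraries (log2 fold change 1.11, edgeR adjusted p = 0.0318). DESeq2 and limma-voom also called Cldn4 higher. The class II genes H2-Aa (-2.07, edgeR adjusted p = 0.123) and H2-Ab1 (-1.84, 0.164) did not pass by edgeR, but were called lower by it without untreated replicate 2 and by DESeq2 in all 9 libraries. Cldn3 was at 0.72 (edgeR adjusted p = 0.200). Cldn4 kept its call in only 2 of the 9 fits, those without irradiated replicate 3 or untreated replicate 2.

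Beside the falls of Spink1 and Lyz1, the summed levels of 3 lists of other cells lay lower in all irradiated than in all untreated libraries. They were Aire-stage medullary epithelium (2483 to 3272 CPM in irradiated and 3525 to 15190 in untreated libraries), cortical epithelium (384 to 648 and 679 to 2009 CPM) and thymocytes (93.3 to 139 and 146 to 1722 CPM). These sums were not tested. Of 8 tested cortical markers 6 lay below 0 and 2 above, and edgeR, DESeq2 and limma-voom called 0. Cxcl12, the most abundant of them, overlapped between the groups (105 to 316 CPM in irradiated and 210 to 578 in untreated libraries). The Paneth, goblet and enterocyte list, whose sum includes Lyz1 and Reg3g, was apart as well, at 1659 to 2194 CPM in irradiated and 2226 to 13267 CPM in untreated libraries. The Aire-stage sums include H2-Aa (mean 484 CPM in irradiated and 2032 in untreated libraries) and H2-Ab1 (789 and 2828 CPM). Aire itself overlapped between the groups and did not pass (-1.82, edgeR adjusted p = 0.560). Cldn3 and Cldn4 of that list were higher in all irradiated libraries. Of 15 thymocyte markers 14 were in the table and 6 were tested by edgeR, with 0 called and 4 lower at an unadjusted p under 0.05. DESeq2 tested 13 of them and called 6 lower, and limma-voom called 1 lower. Ptcra was at 0 in all 4 irradiated libraries and in 1 untreated one, and Cd3e in 3 irradiated libraries and 1 untreated one. Both were sparse, with 22 and 47 counts in the untreated libraries. The ranges ran the other way for fibroblasts and pericytes (3003 to 4485 CPM in irradiated and 723 to 2584 in untreated libraries) and mesothelium (2748 to 3982 and 1462 to 2243 CPM). EdgeR called 0 of 13 tested fibroblast and pericyte markers, of which 9 lay above 0 and 4 below. It called 6 of 8 tested mesothelium markers higher, against 1.22% of all tested genes. Krt19, which was not called, held 1368 to 2066 CPM of the mesothelium sums in irradiated and 1079 to 1685 in untreated libraries. The part of these cells in the falls was not tested.

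Related genes under the low-count filter include several that were high in 1 or 2 libraries, and the choice of those named here was made with their values in view. Reg1, a gene of the same lectin family as Reg3g, held 2 counts in the irradiated and 177 in the untreated libraries, 176 of them in untreated replicate 2. Reg3b, also of that family, held 3 and 72 counts, 70 of them in untreated replicate 2. The ratio of untreated over irradiated was 69.0 for Reg1 (exact 95% interval 18.8 to 574) and 18.7 for Reg3b (6.15 to 92.8), intervals that cover counting error only. The goblet and Paneth cell genes Tff3 and Ang4 were highest in another library, untreated replicate 3, with 278 of 398 and 252 of 311 untreated counts, and held 12 and 4 counts in the irradiated libraries.

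Of 12 Paneth, goblet and enterocyte genes under the filter, 11 had a lower share of counts in irradiated than in untreated libraries and 6 were highest in untreated replicate 2. Some hormone genes were concentrated in 1 or 2 libraries as well. The gut hormone genes Pyy and Cck held 8 and 4 counts in the irradiated libraries and 120 and 67 in the untreated ones, with 117 and 67 in untreated replicate 2. Somatostatin (Sst) held 46 counts in the irradiated libraries, 43 of them in replicate 3, and 341 in the untreated ones, 321 of them in replicate 4. Of 18 neuroendocrine genes under the filter, 13 had a lower share in irradiated libraries, 9 were highest in untreated replicate 2 and 5 in an irradiated library. No share over all genes under the filter is given here, so the counts for both lists describe the listed genes only.

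**Figure D5:**
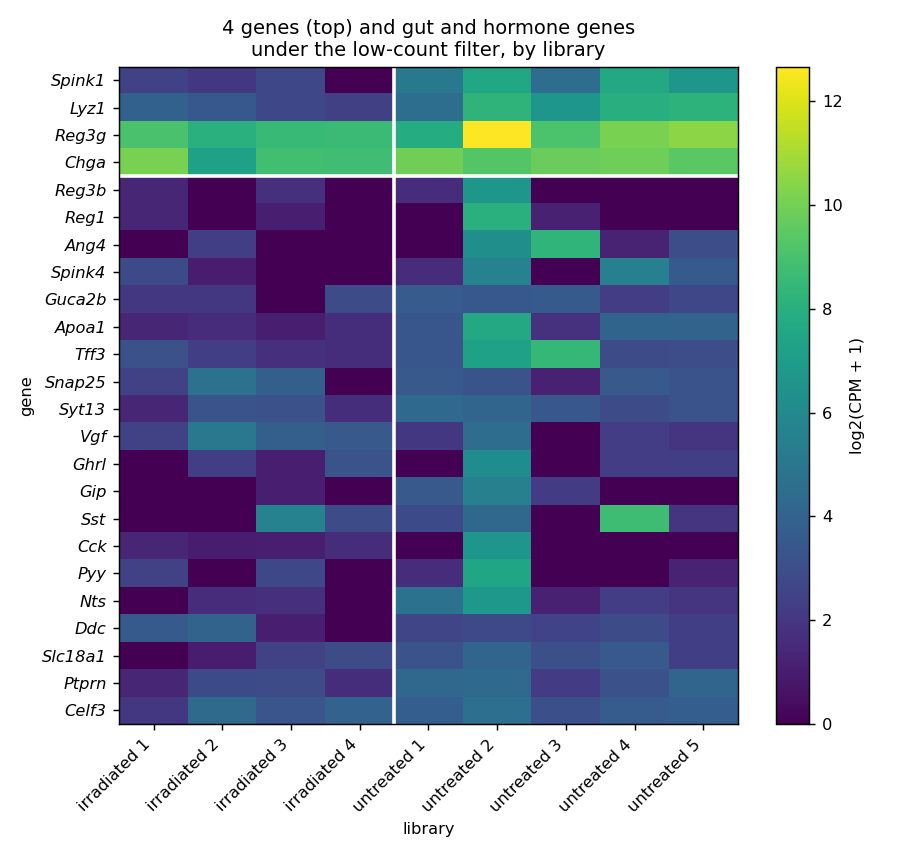
Heat map of log2(CPM + 1) in the 4 irradiated (left) and 5 untreated (right) libraries for the 4 genes (top) and for 20 gut and neuroendocrine genes under the low-count filter with at least 40 counts in all. Reg1, Reg3b, Pyy and Cck are bright in untreated replicate 2 and Sst in untreated replicate 4, others such as Syt13 and Celf3 are dim and spread over libraries, and Spink1 and Lyz1 are bright in several untreated libraries.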

How the data were processed

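Sorted thymic tuft cells were profiled by MARS-seq in 9 libraries. Per the submitters' processing notes, the tools were STAR 2.5.2b, HTSeq, DESeq2, cutadapt and bcl2fastq and the build mm10, with no role stated. No source used here gives the strand setting or the handling of molecular identifiers. Per the file headers, the deposited raw columns hold counts per gene, and the highest count of a gene in any library was never below 6. The deposited normalized signal equalled counts over a single size factor per library. Regularized log2 values were deposited too and were not used. The authors' log2 fold change runs untreated over irradiated, and the authors' p-value columns belong to it. Other deposited flags are scored by the authors. There were 0 columns of other samples.

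Counts were tested in R 4.3.3 with edgeR 4.0.16 (filterByExpr, minimum count 10, TMM, robust quasi-likelihood F test, Benjamini-Hochberg over 8934 genes at 0.05). The common biological coefficient of variation was 28.9%. Log2 CPM used a prior count of 2. Alternatives were DESeq2 1.42.0, limma-voom (limma 3.58.1), other scaling and filters, a replicate block and leaving out each library. Symbols were placed with GENCODE on mm10, and promoters came from RefSeq. The fit was checked on simulated data.

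The members and gene lists were chosen with earlier results of these data known. Named genes are the 4, Lyz2, up to 4 tested genes of each list with the smallest p and any called one, the 4 genes most like each of the 4, and the 3 most abundant markers of each cell type list, of which only those beside a result are printed. Some others, such as Chgb, Aire, Siglech, Ptcra, Cd3e, Ly6g and Camp, are named outside this rule.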

Additional observations from a re-analysis of the deposited data

Results flagged for a closer look

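The 63 named genes were each read within the 4 irradiated and the 5 untreated libraries. In 18 cases 1 library stood apart from the rest of its group for a gene by Dixon's criterion. Normally distributed values meet it by chance in about 1 of 20 groups, and CPM, to which it was applied, need not be so distributed. Of the 18 cases, 14 were in untreated replicate 2. Of these, S100a14, Aoc1 and Lpo were named for a pattern like that of Reg3g, which is itself set by that library, so their places here follow from the choice. Reg3g stood at 6491 CPM there, against 231 to 1388 CPM in the other untreated libraries. The secretory and antimicrobial genes Fcgbp (1163 CPM), Saa1 (290.4 CPM), Itln1 (163 CPM), Lcn2 (507 CPM), Lpo (125.9 CPM) and Aoc1 (142 CPM) were high in that library too. So were Calcb (194 CPM), Csn2 (307 CPM), S100a14 (487 CPM), Grhl1 (51.9 CPM) and the class II genes H2-Aa (5114 CPM) and H2-Ab1 (7117 CPM), while Klf4 was low (850.4 CPM).

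The other 4 were Cst3 in untreated replicate 1 (3096 CPM, against 1032 to 1628 CPM), Agr2 in untreated replicate 3 (186 CPM, against 5.58 to 55.2 CPM), and Socs3 (1042 CPM, against 245 to 304 CPM) and Hspa5 (652 CPM, against 1406 to 1521 CPM) in irradiated replicate 4.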

How the results depend on the processing

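The 4 log2 fold changes stayed below 0 in every alternative run. Spink1 lost its call without a low-count filter (-4.79, edgeR adjusted p = 0.0540), by limma-voom (-4.25) and in replicates 1 to 4 without a block (-4.83), a setting added after the data were seen that is the same fit as leaving out untreated replicate 5. Lyz1 lost it without a filter (-4.42, edgeR adjusted p = 0.0607), by limma-voom (-4.03), in replicates 1 to 4 without a block (-4.24) and with a replicate block (-3.93). Leaving out a library gave -5.13 to -4.47 for Spink1, -4.73 to -4.24 for Lyz1, -2.61 to -1.07 for Reg3g and -1.22 to -0.27 for Chga. It gave 50 to 114 genes higher and 2 to 12 lower. DESeq2 called 184 higher and 100 lower, limma-voom 24 lower and the replicate block 22 lower. The cause was not tested.

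Among pairs, a prior count of 0.5 gave -3.25, -3.79, -2.61 and -3.16 for Spink1 and Lyz1 against Reg3g and Chga, and these then passed. Leaving out a library turned the sign of Spink1 minus Lyz1 (-0.43 to 0.22, positive without untreated replicate 1) and of Reg3g minus Chga (-1.16 to 0.20, positive without untreated replicate 2). Lyz1 minus Lyz2 ranged from -3.60 to -1.81.

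Replicate numbers were shared by 4 pairs of libraries, whose deviations from the group means correlated at 0.07, -0.01, -0.12 and 0.14, and 1 of 4 untreated partners was the best match. These few values cannot show whether libraries of the same number were handled together. On replicates 1 to 4 the block gave 91 genes higher and 22 lower, against 75 and 10 without it. With the replicate block Spink1 was at -4.46 (edgeR adjusted p = 0.0454), against -4.83 (0.0846) in the same libraries without it. The sign-flip permutation of 4 pairs cannot go below p = 0.125. Spink1 rested on 11 irradiated counts, and the limit that a count of 0 allows in those libraries, 3.11 to 6.31 CPM, is close to its values there.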

Other observations

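Among genes of microfold cells, the antigen-sampling cells of gut lymphoid tissue, 1 of 17 tested fell and 0 rose by edgeR. DESeq2 called 5 lower (Ccl20, Ccl6, Gp2, Pglyrp1 and Serpinb1a) and limma-voom 2 lower (Ccl20 and Ccl6). Ccl6, a chemokine, averaged 21.4 ± 7.71 CPM in irradiated and 92.8 ± 39.1 CPM in untreated libraries (log2 fold change -2.08 ± 0.37, edgeR adjusted p = 0.01), with the groups apart in every library. Ccl20, which draws cells that carry CCR6, averaged 65.2 ± 39.6 CPM in irradiated and 260 ± 100.2 CPM in untreated libraries. Its log2 fold change was -1.97 (edgeR adjusted p = 0.0676), and edgeR called it without untreated replicate 1. By edgeR, Ccl6 was called in 8 of the 9 fits that left out 1 library. Of 10 tested genes of other secretory mimetic cells, 0 were called by edgeR and 0 by limma-voom, and 2 had an unadjusted p under 0.05. DESeq2 tested 20 genes of that list and called 2 lower (Csn2 and Ttr). Csn2, a casein, was at -4.20 (edgeR adjusted p = 0.212), the antimicrobial Ltf at 1.56 (0.576) and the airway secretoglobin Scgb1a1 at -1.06 (0.701).

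Pancreatic enzyme genes under the low-count filter, chosen after their values were seen, appeared in single libraries of either group. Ctrb1, a chymotrypsinogen, held 154 of its 169 irradiated counts in irradiated replicate 1 and 92 of its 106 untreated counts in untreated replicate 2. Try5, a trypsin, held 27 counts, all in untreated replicate 2.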
